A study of Homo sapiens with 12 samples.

Results

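Mitochondrial fatty acid synthesis and lipoylation were followed here through 10 genes of 19112 in a genome-wide knockout screen: MCAT, OXSM, MECR, NDUFAB1, CBR4, HSD17B8, ACSF3, LIAS, LIPT2 and LIPT1. They were chosen by symbol, as a pathway, with their beta and z scores in this screen already known, so those scores are given as a description and the choice of genes supports nothing. All 10 were found, each with 4 guides, and none was removed by a filter. The screen used HEK293 cells, a human embryonic kidney line, carrying the Brunello library, in which each cell loses a single gene. Cells were grown to day 15 in ethanol (EtOH) as the control, in actinonin at 15 µM (ACT), in chloramphenicol at 5 µg/mL (CAP) or in the pair at these doses (ACT CAP), and each of these 4 conditions was run as 3 replicates, 12 samples in all. ACT blocks the processing of newly made mitochondrial proteins and leads to aberrant mitochondrial translation, whereas CAP stops the mitochondrial ribosome. All groups came from infected, puromycin-selected and expanded cells that were then split among the conditions, in medium with pyruvate and uridine that the controls received too.

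Mitochondria build fatty acids with separate enzymes that work one after another on a chain tethered to the acyl carrier protein NDUFAB1. The chain is best known as the source of the octanoyl group from which lipoate is made. Lipoate is the swinging arm of pyruvate dehydrogenase, of the other oxoacid dehydrogenases and of the glycine cleavage system. Longer acyl chains on NDUFAB1 bind LYR-motif proteins that assemble iron-sulfur clusters and respiratory complexes, and NDUFAB1 is itself a subunit of complex I.

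The measure was a beta for each gene and condition. It is a fitted change in how abundant the guides were, on a log scale of unstated base and relative to a sample that is not named in the table, fitted jointly to the 3 replicates and the guides. Its z is the beta divided by the standard error (SE) of that fit. The values are those the authors deposited for each condition; no replicate or guide could be seen singly, so the error given is the fit's SE and not a spread between replicates. A negative value means that guides were lost. Most genes had a negative z, and over all genes the median z was -2.03 with EtOH, -1.73 with ACT, -1.78 with CAP and -1.70 with both drugs. Over the 10 genes the median was -2.46, -4.18, -2.51 and -3.40.

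In EtOH, guides against MCAT, NDUFAB1, OXSM and MECR were lost most of the pathway, and those against the ketoacyl reductase subunits CBR4 and HSD17B8 least. MCAT, which loads malonate onto the acyl carrier protein, had a beta of -1.50 (SE 0.131) and a z of -11.5, the lowest z of all 19112 genes, although 21 genes had a lower beta. NDUFAB1 had a beta of -0.863 (SE 0.136, z -6.34). OXSM, the condensing enzyme that lengthens the chain, had a beta of -0.855 (SE 0.144, z -5.92). MECR, the reductase of the last step of each cycle, had a beta of -0.614 (SE 0.110, z -5.57). Of all genes, 4.80% had a lower beta than MECR, the highest of these 4. In the order of betas in EtOH, MCAT lay below NDUFAB1 by 3.40 times the joint SE of the pair and MECR below the next gene, LIPT1, by 3.11 times, while the gaps from NDUFAB1 to OXSM and from OXSM to MECR were under 1.96 SE.

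The remaining 6 genes were close to the bulk of the library in EtOH, where the median beta of all genes was -0.157. LIPT1, the transferase that passes lipoate on to the dehydrogenases, had a beta of -0.211 (SE 0.0684, z -3.09), and the octanoyl transferase LIPT2 had -0.187 (SE 0.117, z -1.59). LIAS, the iron-sulfur enzyme that inserts the sulfur atoms of lipoate, had -0.121 (SE 0.0767, z -1.58). ACSF3, which makes malonyl-CoA from malonate inside mitochondria, had -0.118 (SE 0.0640, z -1.84). CBR4 and HSD17B8, the subunits of the ketoacyl reductase, had -0.0805 (SE 0.0925, z -0.871) and -0.0651 (SE 0.0663, z -0.981). Between none of these neighbours in the order of betas was the gap above 1.96 SE, so EtOH divided the pathway into MCAT, then 3 further chain-building genes, then 6 genes whose order is not resolved.

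**Figure D1:**
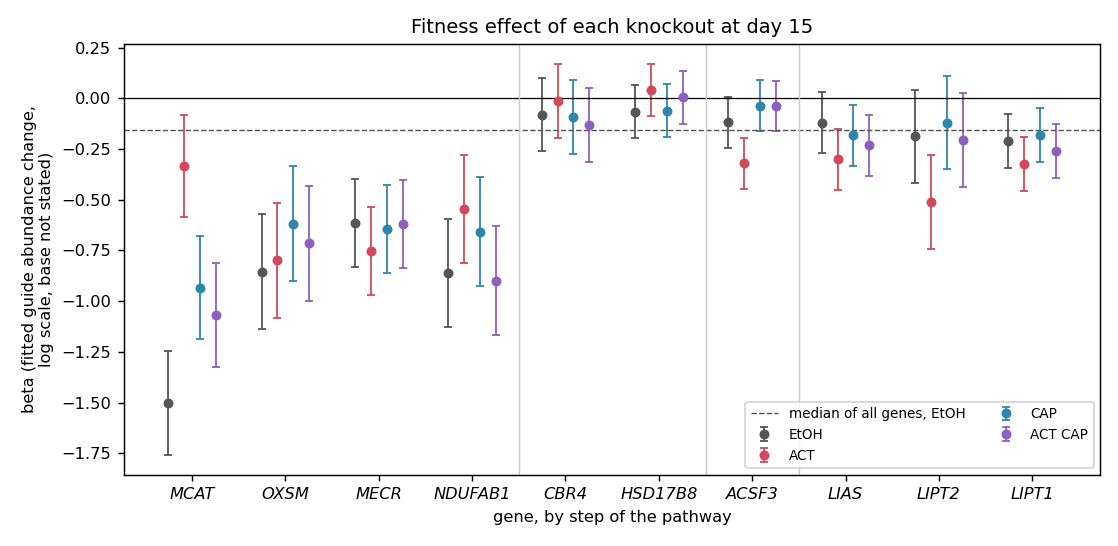
Beta of each of the 10 genes in EtOH, ACT, CAP and ACT CAP at day 15, with genes along the horizontal axis by step of the pathway and bars of 1.96 SE of the fit on each side. MCAT moves from -1.50 in EtOH to -0.334 in ACT, while MECR, ACSF3, LIAS, LIPT2 and LIPT1 each have their lowest beta in ACT, and the dashed line marks the median beta of all genes in EtOH.

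Conditions were compared by the difference of z. The study uses a cut of 3 to pick genes higher, and genes lower, in ACT than in ACT CAP. Here that cut was applied to every comparison and in both directions. Because that rule gives no p, the difference in beta was also divided by the joint SE of both conditions, and the quotient, after centring and after scaling to the spread of the whole table, is called the Wald difference. A gene passed at a 2-sided normal p under 0.05 after Benjamini-Hochberg adjustment over the 19112 genes. The scaled value is given in place of that p. Comparisons with EtOH share its values, so results under different drugs are set side by side and no overlap between them is given. The study chose its doses for a comparable inhibition of growth, so cells with drug grew less than those in EtOH. The part of a difference from EtOH that goes with slower growth cannot be told apart here.

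MCAT was the gene of the pathway that moved most under ACT. Its beta was -1.50 with EtOH, -0.334 with ACT, -0.934 with CAP and -1.07 with both, and its z was -11.5, -2.58, -7.19 and -8.19. The beta of MCAT was thus below 0 in all 4 conditions, least so in ACT and most in EtOH. In ACT the 95% interval of that beta (-0.587 to -0.0801) held the all-gene median of -0.136. There 30.1% of all genes had a lower z than MCAT, and 12.7% had a lower beta. By the interval, a loss beyond the median of the library was not shown in ACT. From EtOH to ACT its z rose by 8.94, the fifth largest rise of all genes, with a beta difference of 1.17 (95% interval 0.810 to 1.53, Wald difference 6.92). In ACT the lowest betas of the pathway were those of OXSM (-0.799, SE 0.145) and MECR (-0.753, SE 0.111). MCAT then lay between LIPT2 and LIPT1, with a gap to either of at most 1.02 SE. By rank among all genes its z went from position 1 from the bottom in EtOH to 5760 (ACT), 33 (CAP) and 26 (ACT CAP).

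With CAP the rise of MCAT was smaller. The z difference from EtOH was 4.33 in CAP (beta difference 0.570, 95% interval 0.209 to 0.931, Wald difference 4.05), which passed. The call ended at an adjusted p of 0.01 and against an unscaled normal null, and also once the trend with the EtOH score was removed by a running median, which left a z difference of 2.56. With z standardised in each condition the difference was 2.38, under 3. In ACT CAP the z difference was 3.32 (beta difference 0.436, 95% interval 0.0750 to 0.798). There it was past 3 but did not pass the test (Wald difference 2.97), and the running median left 1.73. Centring z in each condition gave a difference of 2.99, and standardising it gave 1.63. The running median in ACT left 7.17. That correction is flat at the ends of the range, where MCAT lies, so it may remove too little or too much there.

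ACT alone also differed from both conditions with CAP for MCAT. The z in ACT was 5.62 above that in ACT CAP (beta difference 0.734, 95% interval 0.374 to 1.09, Wald difference 5.40) and 4.61 above that in CAP (beta difference 0.600, 95% interval 0.241 to 0.960, Wald difference 4.17). Both passed, but neither did against an unscaled normal null. Between ACT CAP and CAP the z difference was -1.01 and did not pass (beta difference -0.133, 95% interval -0.494 to 0.227). The interaction asks whether the change from CAP to ACT CAP equals that from EtOH to ACT, and for MCAT the former was lower by 1.30 in beta (SE 0.260, Wald difference -6.51), the fourth lowest z interaction of all genes. It passed, also against the unscaled null.

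For OXSM, MECR and NDUFAB1 no comparison passed. OXSM had betas of -0.855 (EtOH), -0.799 (ACT), -0.619 (CAP) and -0.715 (ACT CAP). MECR had betas of -0.614, -0.753, -0.643 and -0.621 in the same order. For OXSM and MECR the z differences from EtOH lay between -1.24 and 1.63 and none passed, and the 95% intervals of the beta differences from EtOH to ACT were -0.345 to 0.457 for OXSM and -0.445 to 0.168 for MECR. These intervals do not reach the difference of 1.17 measured for MCAT in ACT, whereas from EtOH to CAP the interval for OXSM (-0.164 to 0.636) holds the 0.570 of MCAT. Guides against MECR stayed among the most depleted under the drugs. By z, 3.34% of all genes were lower than MECR in EtOH, 0.727% in ACT, 1.01% with CAP and 1.37% with both.

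NDUFAB1, the carrier that all these enzymes use, had betas of -0.863 (EtOH), -0.546 (ACT), -0.657 (CAP) and -0.900 (ACT CAP). Its z difference from EtOH was 2.32 in ACT (95% interval of the beta difference -0.0608 to 0.694, Wald difference 1.60) and did not pass, and the running median left 0.670. Its z was 2.56 higher in ACT than in ACT CAP (Wald difference 2.48) and its z interaction was -4.07 (Wald difference -2.57), neither of which passed. In sign these values match those of MCAT, at smaller size, but all of them hold the ACT score. From EtOH to ACT CAP the z difference of NDUFAB1 was -0.234, against 3.32 for MCAT.

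CBR4 and HSD17B8 stood apart from the other enzymes of the cycle by the lack of any clear loss. CBR4 had betas of -0.0805 (EtOH), -0.0144 (ACT), -0.0937 (CAP) and -0.133 (ACT CAP). HSD17B8 had -0.0651, 0.0412, -0.0605 and 0.00409. All 8 intervals of these betas included 0, and HSD17B8 in ACT and ACT CAP gave the only positive betas of the pathway. Most genes lay below 0, and the all-gene median beta was -0.136 in ACT and -0.133 in ACT CAP. The HSD17B8 intervals there, -0.0889 to 0.171 and -0.126 to 0.134, lay above these medians. The z differences of CBR4 and HSD17B8 from EtOH ran from -0.563 to 1.60 and none passed. The guides of each gene cannot be viewed singly here, so how completely either subunit was lost was not tested.

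Guides against ACSF3 were lost in ACT and in no other condition beyond the fit's error. Its beta was -0.118 (EtOH), -0.321 (ACT), -0.0357 (CAP) and -0.0377 (ACT CAP), with z of -1.84, -5.01, -0.557 and -0.588. Only in ACT did the 95% interval of the beta (-0.447 to -0.195) exclude 0. ACT therefore held the low value. CAP and ACT CAP lay above EtOH, but neither difference passed. The 95% intervals of these beta differences were -0.0952 to 0.259 and -0.0973 to 0.258. From EtOH to ACT the z difference was -3.17 (beta difference -0.203, 95% interval -0.381 to -0.0257), which is past -3 but did not pass the test (Wald difference -2.78), and it was -2.17 with z standardised in each condition. From ACT CAP to ACT it fell by 4.42 in z, the twenty-fourth lowest of all genes (beta difference -0.283, 95% interval -0.461 to -0.106, Wald difference -4.20). From CAP to ACT it fell by 4.45 (beta difference -0.285, 95% interval -0.463 to -0.108, Wald difference -4.11). Both passed, also at an adjusted p of 0.01 and after the running median, but not against an unscaled normal null, and with z standardised in each condition the differences were -2.83 and -2.91. The z interaction of 3.13 did not pass (Wald difference 2.25).

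The 3 lipoylation enzymes had their lowest scores in ACT, each by a margin that did not pass. LIPT2 had betas of -0.187 (EtOH), -0.513 (ACT), -0.121 (CAP) and -0.206 (ACT CAP). LIAS had -0.121, -0.301, -0.183 and -0.231 in that order, and LIPT1 had -0.211, -0.325, -0.180 and -0.261. From EtOH to ACT the z difference was -2.75 for LIPT2, -2.34 for LIAS and -1.66 for LIPT1, with Wald differences of -2.45, -2.12 and -1.58. Of all genes, 1.07%, 2.04% and 5.82% had a lower z difference. The median z difference of these 3 genes was -2.34, against 0.317 over all genes. A p that misses the threshold does not show that the scores were equal, and the 95% interval of the beta difference of LIAS ran from -0.393 to 0.0326.

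In CAP the lipoylation genes stayed near EtOH, with z differences of 0.567 for LIPT2, -0.808 for LIAS and 0.454 for LIPT1. In ACT CAP the differences from EtOH were -0.152, -1.43 and -0.722. ACT minus CAP gave -3.31 for LIPT2 (beta difference -0.392, 95% interval -0.719 to -0.0658, Wald difference -3.08), -1.53 for LIAS and -2.11 for LIPT1, of which LIPT2 was past -3 and none passed the test. With z standardised the LIPT2 difference was -2.16. ACT minus ACT CAP gave -2.59, -0.911 and -0.937. LIPT2 thus differed more between ACT and the conditions with CAP than LIAS and LIPT1 did in these values, a contrast between genes that was not tested.

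**Figure D2:**
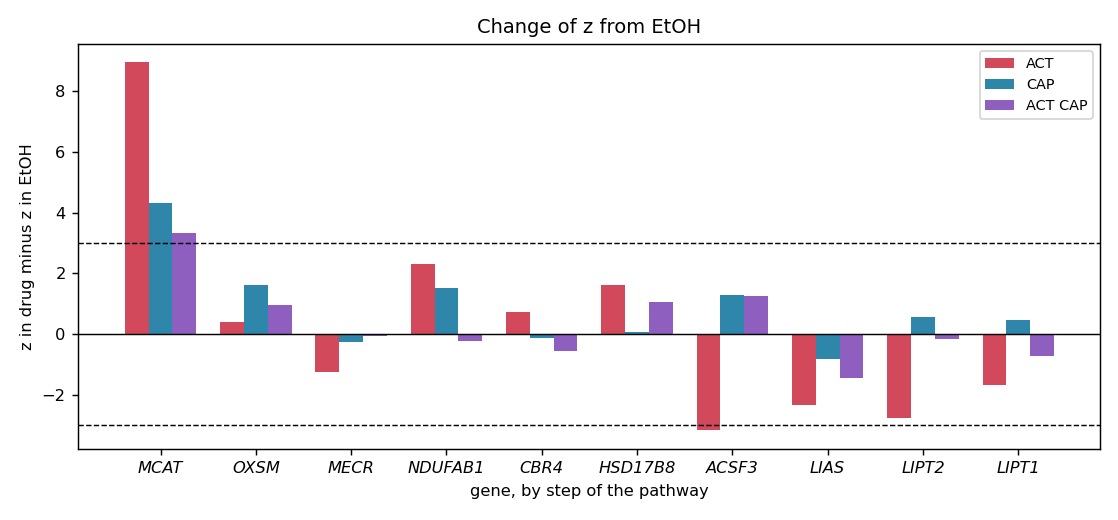
Bars give the change in z of each gene from EtOH to ACT, CAP or both drugs, with genes along the horizontal axis by step of the pathway and dashed lines at 3 and -3. The bar of MCAT reaches 8.94 in ACT, while MECR, ACSF3, LIAS, LIPT2 and LIPT1 have bars below 0 in ACT.

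Counted over the pathway, 1 of the 10 genes passed for ACT against EtOH, MCAT upwards, where 1.23% of all genes passed in either direction and 1.08% upwards. By the z rule 1 gene lay at 3 or more (4.02% of all genes) and 1 at -3 or less (0.769%), ACSF3. For CAP against EtOH 1 gene passed, MCAT, where 0.251% of all genes passed, 0.188% upwards, and MCAT was also the 1 gene at a z difference of 3 or more (1.13%). For ACT CAP against EtOH none of the 10 passed (0.277% of all genes), with MCAT at 3 or more (1.27%). ACT minus ACT CAP had 1 gene higher, MCAT, and 1 lower, ACSF3, where 0.821% of all genes passed, 0.534% higher and 0.288% lower. ACT minus CAP had the same 2 genes, where 0.759% passed, 0.46% higher and 0.298% lower, with ACSF3 and LIPT2 at -3 or less (0.926%). ACT CAP minus CAP had none (0.0471%). The interaction had MCAT alone, where 0.612% passed and 0.513% were lower. By the z rule it had ACSF3 at 3 or more (1.67%) and MCAT and NDUFAB1 at -3 or less (5.5%). The genes were listed with these contrasts known, so nothing is read from the counts. The median z difference of the 10 genes was -0.419 with ACT, 0.511 with CAP and -0.102 with both, against 0.317, 0.285 and 0.360 over all genes. In ACT the mean was 0.284 and so had the opposite sign to the median, with MCAT far above it and MECR, ACSF3, LIAS, LIPT2 and LIPT1 below it.

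**Figure D3:**
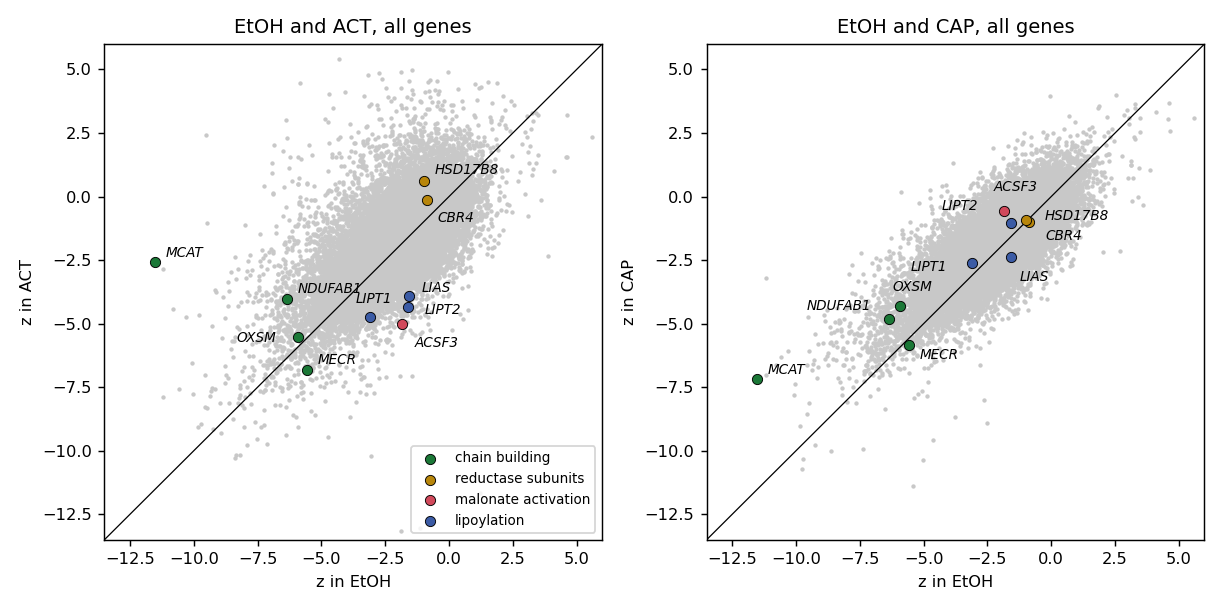
Each grey point is 1 of 19112 genes by its z in EtOH (horizontal) and in ACT (left) or CAP (right), the line marks equal z, and the coloured points are the 10 genes by step of the pathway. MCAT, at -11.5 in EtOH, lies far above the line in ACT at -2.58 and less so in CAP at -7.19, and MECR, ACSF3, LIAS, LIPT2 and LIPT1 lie below the line in ACT.

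The genes most like MCAT and ACSF3 were found by the Euclidean distance between the z of the 4 conditions, over 4 points only. Nearest to MCAT were ATP6V1A at 2.93, MRPL53 at 3.23 and GTPBP6 at 3.31, and no gene lay within a distance of 2. ATP6V1A had z of -9.49 (EtOH), -1.06 (ACT), -6.08 (CAP) and -7.22 (ACT CAP). Nearest to ACSF3 were TCEB3C at 0.959, NDUFV2 at 1.05 and SLTM at 1.13, among 73 genes within 2. Within the pathway the closest pair was ACSF3 and LIPT2 at 1.44, then CBR4 and HSD17B8 at 1.69, LIAS and LIPT2 at 1.90, LIAS and LIPT1 at 1.92, and OXSM and MECR at 2.14. MCAT was nearest to NDUFAB1, at 6.09. These distances describe the table and were not tested.

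Genes that feed the pathway or depend on it were read from 7 lists with 57 genes, of which 56 were matched by symbol or synonym. Of the 5 lipoylated proteins, none passed in ACT, CAP or ACT CAP against EtOH, where 1.23%, 0.251% and 0.277% of all genes passed. At these shares, none passing in so short a list is not a result about it, here and in the lists below. The median z difference of the lipoylated proteins in ACT was 0.0312. DLAT, the lipoylated core of pyruvate dehydrogenase, had the largest difference from EtOH of this list, which did not pass (Wald difference -3.44). Its z was 3.20 (EtOH), 2.64 (ACT), 0.712 (CAP) and 0.0815 (ACT CAP), with differences from EtOH of -0.554, -2.48 and -3.12. DLST, the lipoylated core of oxoglutarate dehydrogenase, had z differences of 0.0312, 0.728 and 0.801.

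Of 10 partners of these proteins, 1 passed, PDHB, the beta subunit of pyruvate dehydrogenase, in ACT CAP against EtOH (0.277% of all genes) and in ACT against ACT CAP (0.821%). Its z was 3.41 (EtOH), 3.29 (ACT), -0.0102 (CAP) and -0.884 (ACT CAP). It was lower in ACT CAP than in EtOH (z difference -4.29, Wald difference -4.60) and higher in ACT than in ACT CAP (z difference 4.17, Wald difference 3.99). The alpha subunit PDHA1 had z differences from EtOH of -0.132 (ACT), -3.29 (CAP) and -3.22 (ACT CAP), which did not pass (Wald differences -0.352, -3.54 and -3.55). DLAT, PDHB and PDHA1 thus had their low values in the conditions with CAP, and ACSF3 and LIPT2 in ACT, a contrast between genes that was not tested. In the same complex, PDHX had z differences from EtOH of 1.30 (ACT), -0.622 (CAP) and -0.0362 (ACT CAP). DLD had its lowest z in ACT, with differences of -1.47, -0.405 and -0.435, so the complex did not move one way.

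Of 14 genes that supply iron-sulfur clusters to LIAS, none passed against EtOH, where at most 1.23% of all genes passed. Their median z difference in ACT was -0.218. GLRX5, a glutaredoxin that hands on nascent clusters, had the largest difference from EtOH of the list, 3.55 in ACT (Wald difference 2.58). Lower values came from NFU1, which carries clusters to LIAS, and FDX1, a ferredoxin needed for lipoylation. NFU1 had z of -2.78 (EtOH), -5.81 (ACT), -2.23 (CAP) and -2.30 (ACT CAP), and FDX1 had -2.35, -5.09, -1.37 and -1.38. Their z differences were -3.03 and -2.74 from EtOH to ACT (Wald differences -2.67 and -2.44). Between ACT and ACT CAP they were -3.51 and -3.70, with Wald differences of -3.34 and -3.52 that did not pass, where the smallest that passed was 3.53 in size. BOLA3, which acts with NFU1, had a z difference of 2.65 in ACT, so this list did not move one way.

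**Figure D4:**
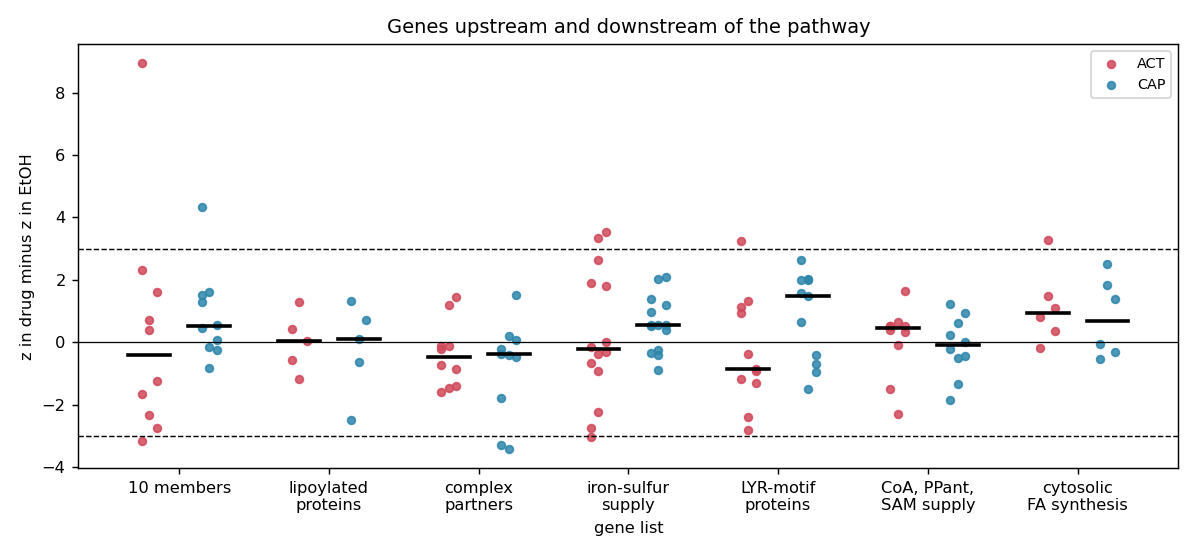
Each point is a gene by its z in ACT or CAP minus its z in EtOH (vertical), for the 10 genes and for 6 of the related lists with 2 or more matched genes, with horizontal bars at the median of each list and dashed lines at 3 and -3. The list medians lie between -0.848 and 1.48, and the point of MCAT at 8.94 stands above all others.

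Of 11 LYR-motif proteins none passed against EtOH, where at most 1.23% of all genes passed. Their median z difference was -0.848 in ACT and 1.48 in CAP. LYRM1 had the largest difference, 3.26 in ACT (Wald difference 2.35). NDUFA6, which binds NDUFAB1 in complex I, had z of -5.06 (EtOH), -7.44 (ACT), -3.07 (CAP) and -3.15 (ACT CAP). It was lower in ACT than in ACT CAP (z difference -4.29, Wald difference -4.11) and than in CAP (z difference -4.37, Wald difference -4.07). Both passed, where 0.821% and 0.759% of all genes passed. NDUFB9 of the same list did not pass between ACT and ACT CAP (z difference -1.58, Wald difference -1.50). The 10 genes of phosphopantetheine, CoA and S-adenosylmethionine supply did not pass in any comparison, where at most 1.23% of all genes passed. These genes had median z differences of 0.462 in ACT and -0.0911 in CAP. Among them the pantothenate kinase PANK1 had the largest difference, -2.29 in ACT. AASDHPPT, which attaches the arm that carries the acyl chain on NDUFAB1, was strongly depleted throughout, with z of -5.37 (EtOH), -4.85 (ACT), -5.15 (CAP) and -4.92 (ACT CAP). RPP14, whose transcript also encodes the dehydratase of the pathway, had z differences of 0.584, -0.656 and 0.0973. The dehydratase itself, HTD2, was the gene not matched, and whether guides against RPP14 disrupt it was not tested.

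Cytosolic fatty acid synthesis builds chains by a single large enzyme outside mitochondria. The 6 genes listed with it did not pass in any comparison, where at most 1.23% of all genes passed. Their median z difference was 0.947 in ACT. FASN, that enzyme, had z of -5.15 in EtOH and -5.32 in ACT, and ACACA, which makes its malonyl-CoA, had -9.36 and -7.86. MLYCD was on the list although it is a decarboxylase that removes malonyl-CoA and not a synthesis enzyme. It had the largest difference of the list, 3.30 in ACT CAP (Wald difference 2.92) and 3.29 in ACT (Wald difference 2.37). ACSF3, which makes malonyl-CoA, had -3.17 in ACT and 1.25 in ACT CAP, and neither passed. The contrast between ACSF3 and MLYCD was not tested.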

How the data were processed

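Guide counts of 12 samples were processed by the authors in a single batch, from reads of Phred score over 20, with MAGeCK (version not given in the sources used here). They deposited a gene table of 19112 genes with, for each condition, a beta score and a z score fitted over replicates and guides, and p-values. Depth per sample is not in these columns, so precision is that of the fit. Of 76448 z cells, 1146 held calendar dates written by spreadsheet software. They were rebuilt with the sign of beta from the deposited Wald p-value, which came within 0.00102 of intact values. None belonged to the 10 genes. The Wald p-value columns, which are the authors' own tests, served only this step, and their permutation p-values and FDR were not used.

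SE was taken as beta divided by z, and the covariance between conditions is not known. Wald differences had the all-gene median subtracted and were divided by 1.48 times their median absolute deviation. The study describes z as averaged, standardised guide changes, while the deposited z matched the deposited Wald p-value and was therefore read as beta over SE. Intervals of 95% use 1.96 SE and cover the fit's error only. The test was checked on simulated data, drawn as independent normal values with the centre and spread of the real ones. That check covers neither heavier tails nor covariance between conditions. Genes and lists were chosen with earlier results of these data known. Named genes are the 10 members, genes of the lists past the test against EtOH or with the largest z difference, and the 3 nearest by z. DLST, PDHX, PDHA1, DLD, NFU1, FDX1, BOLA3, NDUFA6, NDUFB9, AASDHPPT, FASN and ACACA were named after their values were seen. Alternatives were other scalings of z, a running median of 501 genes, an unscaled null, an adjusted p of 0.01, genes with exactly 4 guides and the mean. Computation used scipy 1.17.1, pandas 2.3.3 and numpy 2.4.6 under Python 3.11.15, and plots used matplotlib 3.10.9.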

Additional observations from a re-analysis of the deposited data

Results flagged for a closer look

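The change of MCAT from EtOH to ACT differed from its change from CAP to ACT CAP, which flagged it, with an interaction Wald difference of -6.51. The z difference was 8.94 without CAP and -1.01 with it. The interaction holds the ACT and EtOH values, between which MCAT is at an extreme, and single replicates were not seen. The other 9 genes did not pass this test.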

How the results depend on the processing

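No paired analysis was possible because the columns hold a fit over all replicates of a condition and carry no replicate number, and for the same reason no replicate could be left out. The number of the 10 genes past the test kept its value with genes of exactly 4 guides in all comparisons. Against an unscaled normal null it was 0 in place of 1 for CAP minus EtOH, 0 in place of 2 for ACT minus ACT CAP and 0 in place of 2 for ACT minus CAP. The scaled spread of the unscaled values was 0.715, 0.742 and 0.776 in these comparisons, so that null is stricter. For CAP minus EtOH it was also 0 at an adjusted p of 0.01 and with the running median removed. By the z rule it was 2 in place of 1 for ACT minus EtOH, 1 in place of 0 for ACT CAP minus EtOH, 3 in place of 2 for ACT minus CAP and 3 in place of 1 for the interaction. The median z difference of the 10 genes went from -0.419 to -1.65 in ACT minus EtOH with the running median removed, and the mean was 0.284. The mean was 0.344 where the median was -0.102 for ACT CAP minus EtOH, -0.0609 where it was -0.741 for ACT minus ACT CAP, and -0.803 where it was -0.0731 for the interaction. The last median was 0.152 with z centred and 0.0811 with z standardised. For ACT minus CAP the median went from -1.11 to -0.470 with z standardised. With z standardised, MCAT's z difference from EtOH was 5.64 (ACT), 2.38 (CAP) and 1.63 (both drugs). No called z difference of a single gene changed sign under these scalings. Over all genes the number past the test went from 48 to 2 (CAP minus EtOH), from 53 to 1 (ACT CAP minus EtOH) and from 236 to 141 (ACT minus EtOH) against the unscaled null. The cause of the other shifts was not tested.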
